A study of Sus scrofa with 6 samples.

Results

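Antigen presentation genes, including the swine major histocompatibility complex (MHC, called SLA in pigs), were examined in the longissimus dorsi, the pork loin muscle, of Wei and Yorkshire pigs. Of the 25322 gene rows in the deposited table, 45 carried the KEGG pathway term for antigen processing and presentation and 23 had a name containing SLA-, with 9 rows in both sets. After 10 rows for heat shock proteins, cathepsins and the T cell coreceptors CD4, CD8A and CD8B were left out by name, 49 rows remained: 9 class I heavy chains, 16 class II chains and 24 others. The submitters labelled 3 RNA libraries Wei and 3 Yorkshire, from untreated animals as far as the labels say. Wei pigs had free access to commercial feed and were slaughtered at 90 kg, while Yorkshire pigs are described as kept similarly, without a weight. Sex, age and SLA type are not given for either breed. Whether every library comes from its own animal is also not stated. The spread behind each p-value is that between libraries and, where libraries share an animal, may be technical. Values of a breed are given below in the order of its replicates 1, 2 and 3. The labels do not pair libraries of equal number across breeds.

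MHC class I molecules pair a heavy chain with B2M and display peptides from the cytosol on nearly all nucleated cells. The peptides are cut by the proteasome, pumped into the endoplasmic reticulum by the TAP1-TAP2 transporter and loaded with the help of tapasin and chaperones. Class II molecules pair an alpha with a beta chain, receive peptides in endosomes under the control of the DM and DO molecules, and are carried mainly by dendritic cells, macrophages and B cells. Resting muscle fibres carry little MHC, and whole muscle also holds vessels and leukocytes between the fibres. Which cells gave the signal here was not tested. Pig SLA genes are highly variable between animals, and the classical class I genes resemble each other closely. As SLA type is not given, a difference in alleles cannot be told apart from one in expression in the SLA rows.

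Total counts ranged from 15285197 to 27096747 per library. Muscle fibre markers (ACTA1, CKM, TNNT1, TTN, DES and MYLPF) summed to between 71350 and 139800 counts per 1e6 scaled counts (CPM) in every library, as the tissue label says. Yorkshire replicate 3 stood apart in its leukocyte RNA. T and natural killer cell markers summed to 31.0 CPM there and to between 4.36 and 8.41 in the other 5 libraries. The macrophage sums were 174 against 42.6 to 53.3, those of markers shared by all leukocytes 69.3 against 14.4 to 20.2, and those of dendritic cells 6.30 against 0.636 to 2.99. Endothelial markers did not follow, with 203 CPM in Yorkshire replicate 3 and 150 to 218 elsewhere. Wei replicate 2 alone had Y chromosome counts above background (6901, against at most 14 in each other library). It thus came from a male and from another animal than Wei replicates 1 and 3, so sex was mixed within Wei. The Yorkshire libraries held 10, 8 and 10 Y chromosome counts, so none looked male and sex was not balanced between the breeds. Whether sex bears on the values of the members was not tested. In bulk tissue, fewer cells of a type and less RNA per cell cannot be told apart.

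The comparison asked which of these genes differ between Wei and Yorkshire loin. Only TMP-SLA-5, a class I heavy chain row, passed the test, and it was higher in Wei. That is 1 of the 36 members that had enough counts to be tested, beside 5.08% of all 13209 tested genes (quasi-likelihood test of edgeR, p adjusted by Benjamini-Hochberg under 0.05). For calls higher in Wei the background was 2.73%, and for calls lower in Wei, of which the members had 0, it was 2.35%. At an unadjusted p under 0.05 there were 2 members higher and 6 lower, against 11.4% and 11.8% of all genes and 23.3% in either direction. Of the 36, 3 had all Wei libraries above all Yorkshire libraries and 5 had all below, where the background is 14.3% and 15.3%, or 29.6% in either direction. The share of members that differed was therefore not above that of all genes by edgeR. DESeq2 called 3 members, all outside the MHC chains (IFI30, the further TAP2 row and the cathepsin L1 row), against 9.77% of all genes. The limma voom test called TMP-SLA-5 alone, against 4.88%. A negative fold change was found in 24 of 36, against 52.2% of all genes. TAP1 and TAP2 each enter with 2 rows, and with these summed 22 of 34 were negative. The median log2 fold change was 0.04 for 8 tested class I heavy chains, -0.36 for 9 tested class II chains and -0.40 for the other 19, against -0.02 over all genes.

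**Figure D1:**
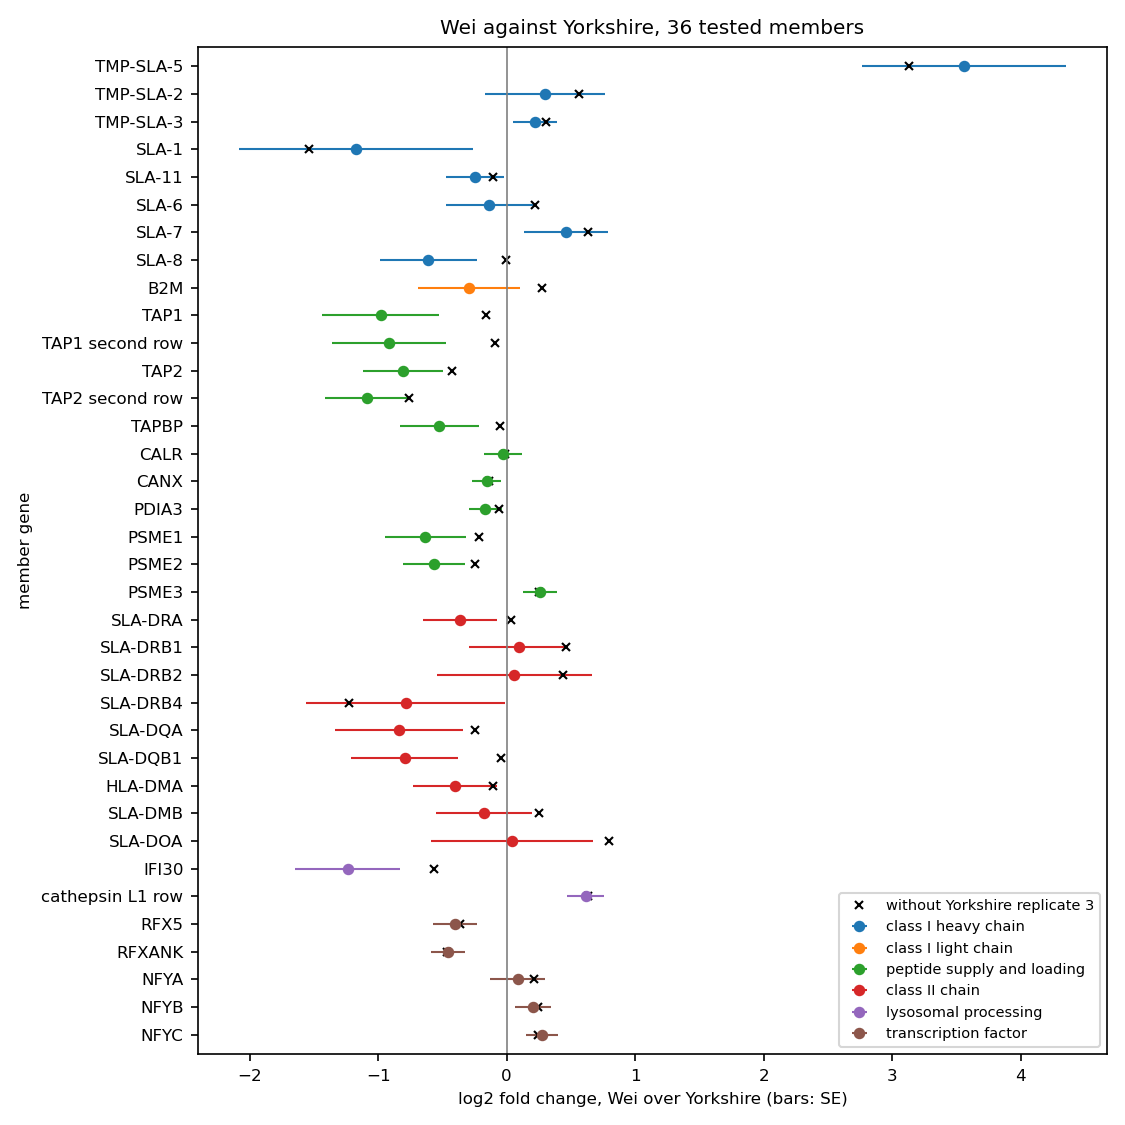
Log2 fold change, Wei over Yorkshire, of the 36 tested members, with SE as bars, coloured by role. Crosses give the same value without Yorkshire replicate 3, the library that was highest in 21 of the 36. TMP-SLA-5 lies at 3.56, apart from the rest, and the crosses of the TAP1, TAPBP, SLA-DRA and SLA-DQB1 rows lie close to 0.

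TMP-SLA-5, a class I heavy chain row, was read in every Wei library and hardly at all in 2 of the 3 Yorkshire libraries. The row (ENSSSCG00000030767) lies on chromosome 7 from 24721026 to 24724165 in the build Sscrofa10.2, between TMP-SLA-3 and SLA-1. RefSeq lists no gene of this name in the later assembly Sscrofa11.1, nor any of the other TMP-SLA names. The lookup by name therefore cannot tell whether the row encodes a working heavy chain. There were 111, 76 and 189 counts in Wei and 37, 0 and 6 in Yorkshire. Every Wei library was above every Yorkshire library, and 37 of the 43 Yorkshire counts came from replicate 1. In CPM the mean was 6.92 ± 2.18 (SD, n = 3) for Wei and 0.555 ± 0.779 for Yorkshire. TMP-SLA-5 rose by a log2 fold change of 3.56 ± 0.79 (SE; edgeR adjusted p = 0.0418). The count of 0 in Yorkshire replicate 2 allows up to 3 counts. The call held without Yorkshire replicate 1 (log2 fold change 5.69, edgeR adjusted p = 0.0132). It was lost with any other library left out, at adjusted p between 0.0618 and 0.106, while the log2 fold change stayed between 3.07 and 3.76. DESeq2 gave 3.65 with an adjusted p of 0.0825. Reads of such similar genes can be split between rows, so the value is uncertain. Whether the animals differ in expression of this row or in their SLA alleles was not tested.

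As a share of all class I heavy chain counts, TMP-SLA-5 took 3.25% (95% exact Clopper-Pearson interval 2.68 to 3.90), 4.92% (3.90 to 6.12) and 5.92% (5.13 to 6.80) in Wei. In Yorkshire it took 0.764% (0.538 to 1.051) in replicate 1, 0 of 1935 counts in replicate 2, which allows up to 0.155%, and 0.128% (0.0469 to 0.278) in replicate 3. The share was higher in every Wei library than in any Yorkshire library. It uses the same counts as the test, so it is no further support for the call. These intervals cover counting error only.

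SLA-1, a classical class I gene (chromosome 7, 24748105 to 24751642), differed widely between libraries of the same breed. Its level was 63.4, 6.75 and 11.08 CPM in Yorkshire and 26.4, 3.84 and 6.02 in Wei. Replicate 1 was the high library in both breeds, and the breeds overlapped. The highest library stood 9.39 times above the lowest in Yorkshire and 6.88 times in Wei, where the median over tested genes was 1.33 and 1.39. Ratios at least that large were found in 0.455% and 0.949% of tested genes. SLA-1 took 33.4% of class I counts in Yorkshire replicate 1 (32.1 to 34.8), 13.0% in Wei replicate 1 (11.9 to 14.2) and between 3.82% and 6.47% elsewhere. Its log2 fold change was -1.17 ± 0.91 (edgeR adjusted p = 0.474), and 0.43 without Yorkshire replicate 1.

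TMP-SLA-2 and TMP-SLA-3 are rows of the other classical class I genes. Per gene length, TMP-SLA-2 was the highest class I heavy chain, at a mean of 68.8 fragments per kilobase per 1e6 fragments (FPKM). TMP-SLA-3 stood at 17.2. This order rests on length. In the build the TMP-SLA-2 row spans only 1218 bases and that of TMP-SLA-3 3744, but the lengths behind the FPKM values are not given. In counts TMP-SLA-2 was below TMP-SLA-3, with 4411 against 5761 in all libraries together. TMP-SLA-3 (chromosome 7, 24641581 to 24645324) stood at 37.1, 44.8 and 48.2 CPM in Yorkshire and 59.5, 40.8 and 51.1 in Wei. These values lie close together and overlap between breeds, with a log2 fold change of 0.22 ± 0.17. TMP-SLA-2 (24603748 to 24604965) stood at 37.6, 14.3 and 41.5 CPM in Yorkshire and 59.4, 18.5 and 37.3 in Wei, so replicate 2 was the low library in each breed. TMP-SLA-2 had a log2 fold change of 0.30 ± 0.47. Neither row passed the test (edgeR adjusted p = 0.472 and 0.738).

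**Figure D2:**
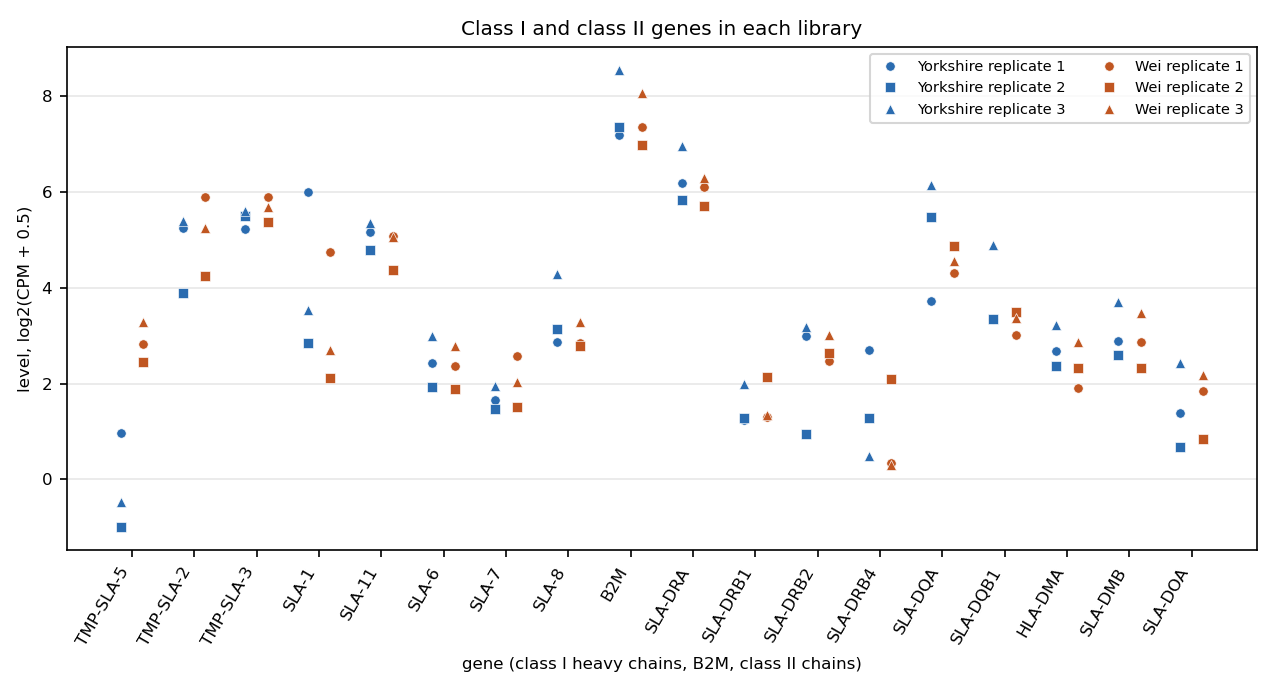
Level of each tested class I heavy chain, B2M and each tested class II chain as log2(CPM + 0.5), with a point per library, Yorkshire on the left of each gene and Wei on the right. SLA-1, SLA-DRB4 and SLA-DQA spread widely within a breed, and TMP-SLA-5 is separated between breeds.

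The other class I heavy chains overlapped between breeds. SLA-11 ranged from 20.4 to 40.4 CPM over the 6 libraries, although the RefSeq annotation of the later assembly Sscrofa11.1 lists it as a pseudogene. SLA-6, SLA-7 and SLA-8 are non-classical genes whose sequences vary less between animals. SLA-6 ranged from 3.19 to 7.43 CPM, SLA-7 from 2.27 to 5.50 and SLA-8 from 6.44 to 19.1, with log2 fold changes of -0.13 ± 0.34, 0.46 ± 0.33 and -0.61 ± 0.38. SLA-8 was highest in Yorkshire replicate 3, and its value without that library was -0.0039. The row of SLA-8 spans 420792 bases and overlaps 36 other rows, among them SLA-6, SLA-7 and TNF, so its count may hold reads of other genes. TMP-SLA-4 had 1 count in all and was not tested.

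Summed over the 9 rows, class I heavy chains stood at 189, 107 and 171 CPM in Yorkshire and 202, 100.4 and 156 in Wei. Replicate 2 of each breed was lowest, and the ranges of the breeds overlapped almost fully. The mean was 156 ± 43.3 CPM (SD, n = 3) for Yorkshire and 153 ± 51.0 for Wei. If no read was dropped or counted at several rows, the sum does not depend on how reads were divided between the 9 rows. How such reads were counted is not stated. The SLA-8 row, which overlaps SLA-6, SLA-7 and other genes, is part of the sum. Rows outside the list that hold class I reads are not in the sum.

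**Figure D3:**
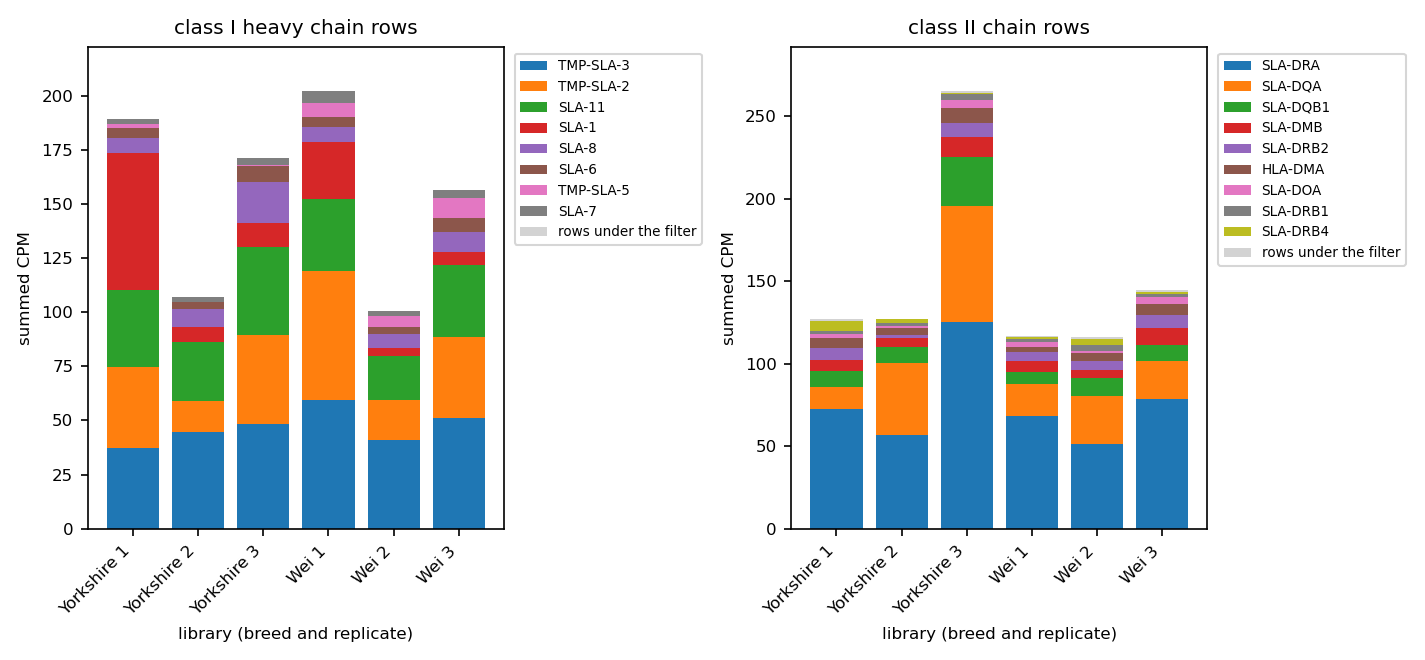
Summed CPM of class I heavy chain rows (left) and class II chain rows (right) in each library, stacked by gene, with rows under the count filter in grey. The class I total lies between 100.4 and 202 CPM with a differing part from SLA-1. The class II total of Yorkshire replicate 3 is 265 CPM against 116 to 144 in the others.

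B2M, the invariant light chain (chromosome 1, 141532505 to 141538781), had the highest level of any tested member per gene length, at 122 to 399 FPKM. In CPM it stood at 145, 163 and 375 in Yorkshire and 164, 126 and 269 in Wei. Replicate 3 was the high library in each breed, and the breeds overlapped. The log2 fold change was -0.29 ± 0.40 (edgeR adjusted p = 0.698), and 0.28 without Yorkshire replicate 3. Per length, B2M stood at 1.004, 2.64 and 2.93 times the summed class I heavy chains in Yorkshire and 0.928, 1.84 and 2.23 times in Wei. Replicate 1 was thus the low library in each breed. The ratio leans on the short TMP-SLA-2 row, which gave 128 of 194.5 FPKM of that sum in Wei replicate 1. In Yorkshire replicate 1 it gave 69.3 of 135.6 FPKM.

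Genes of peptide supply and loading mostly had lower values in Wei, but none of the 11 rows passed edgeR's test. At an unadjusted p under 0.05, 3 of them were lower, against 11.8% of all genes, DESeq2 called 1, against 9.77%, and voom 0, against 4.88%. Of the 11, 10 had a negative log2 fold change, against 52.2% of all genes, with a median of -0.57, and 9 were highest in Yorkshire replicate 3. TAP1 and TAP2 each enter these counts with a further row, and both TAP2 rows are among the 3 lower. TAP1, a subunit of the peptide transporter, stood at 7.62, 7.69 and 25.0 CPM in Yorkshire and 7.16, 5.40 and 7.93 in Wei at its row from 29429375 to 29438742 on chromosome 7. Yorkshire replicate 3 alone was high, and the log2 fold change went from -0.98 ± 0.45 (edgeR adjusted p = 0.237) to -0.16 without it. TAP2, the partner subunit, stood at 5.82, 6.58 and 11.7 CPM in Yorkshire and 4.79, 3.32 and 5.63 in Wei at its row from 29412165 to 29423473. Here Wei was below Yorkshire in all libraries, with a log2 fold change of -0.81 ± 0.31 (edgeR adjusted p = 0.167) and -0.42 without Yorkshire replicate 3.

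TAP1 and TAP2 each had a further row in the table. The further rows lie at 29274670 to 29283296 and 29257059 to 29268365 on chromosome 7. Rows of DOB, TAP2, PSMB8, TAP1 and PSMB9 occur in the same order at both places, spaced by between 154238 and 155109 bases, while RefSeq lists 1 of each in Sscrofa11.1. The further TAP1 row had 0.876 to 1.12 times the counts of the other. For TAP2 this ratio was 0.608 to 0.696 in Wei and 0.763 to 0.866 in Yorkshire, under 1 in all 6 libraries and without overlap between breeds. With both rows summed, TAP1 had a log2 fold change of -0.95 ± 0.44 and TAP2 of -0.93 ± 0.30 (edgeR adjusted p = 0.238 and 0.112). The same sum for the immunoproteasome subunits PSMB8 and PSMB9, which are no members and were chosen after their values were seen, gave -1.16 ± 0.51 and -1.32 ± 0.62 (edgeR adjusted p = 0.214 and 0.242). Without Yorkshire replicate 3 their separate rows were at -0.29 and -0.066 for PSMB8 and -0.24 and 0.046 for PSMB9. In the fit with repeated rows summed, the median of members outside both chain groups was -0.29, against -0.40 with rows apart.

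Tapasin (TAPBP), which bridges class I to the transporter, stood at 7.93 to 10.3 CPM in 5 libraries and at 20.7 in Yorkshire replicate 3. Its log2 fold change was -0.53 ± 0.31, and -0.05 without Yorkshire replicate 3. The proteasome activator subunits PSME1 (-0.63 ± 0.31) and PSME2 (-0.57 ± 0.24) likewise came closer to 0 without that library, at -0.21 and -0.24. PSME3, a nuclear activator that is not of the interferon-induced pair, had a positive value of 0.26 ± 0.13. The chaperones that fold class I chains along with many other proteins were even across libraries. CANX stood at 135, 133 and 138 CPM in Yorkshire and 129, 115 and 122 in Wei, all below Yorkshire by a log2 fold change of -0.15 ± 0.11 that did not pass (edgeR adjusted p = 0.439). CALR had a log2 fold change of -0.03 ± 0.15 and PDIA3 of -0.17 ± 0.13.

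No class II chain passed edgeR's test, against 5.08% of all genes. None had an unadjusted p under 0.05, against 23.3%, and DESeq2 and voom called 0, against 9.77% and 4.88%. Yorkshire replicate 3 held the highest value in 7 of the 9 tested rows. SLA-DRA, the DR alpha chain (chromosome 7, 29036552 to 29042147), had the highest class II level per length, at a mean of 60.8 FPKM. It stood at 72.8, 56.6 and 125 CPM in Yorkshire and 68.1, 51.6 and 78.4 in Wei, with 1 high library and breeds that overlap. Without the high library its log2 fold change went from -0.36 ± 0.29 (edgeR adjusted p = 0.478) to 0.03. SLA-DQB1, the DQ beta chain, stood at 9.77, 9.73 and 29.3 CPM in Yorkshire and 7.57, 10.9 and 9.84 in Wei, again with 1 high library. Its log2 fold change of -0.79 ± 0.42 became -0.05 without it.

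SLA-DQA, the DQ alpha chain (29164956 to 29170803), followed another order. It stood at 12.8, 43.9 and 70.8 CPM in Yorkshire and 19.4, 29.0 and 23.1 in Wei, so Yorkshire replicate 1 was the lowest of all 6. Against SLA-DRA its counts were 0.175, 0.776 and 0.565 in Yorkshire and 0.285, 0.562 and 0.294 in Wei. SLA-DQA had a log2 fold change of -0.84 ± 0.50 (edgeR adjusted p = 0.346). Of the fits tried, it was called in the one without Yorkshire replicate 1, at -1.27 (edgeR adjusted p = 0.0489), and it was -0.25 without Yorkshire replicate 3 (edgeR adjusted p = 0.808).

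The DR beta rows, which encode or resemble the partner of SLA-DRA, summed to between 5.39 and 15.9 FPKM and varied by library. SLA-DRB2 held 192, 26 and 234 counts in Yorkshire and 86, 88 and 155 in Wei. SLA-DRB4, a RefSeq pseudogene, held 154, 35 and 25 counts in Yorkshire and 13, 58 and 15 in Wei. SLA-DRB1, the functional beta chain gene, held 48, 35 and 96 counts in Yorkshire and 33, 60 and 42 in Wei. Of the DR beta counts, SLA-DRB4 took 37.3% and 36.1% in Yorkshire replicates 1 and 2, 27.6% in Wei replicate 2 and 6.81% to 9.35% in the other 3 libraries. The breeds overlapped in each of these rows. Their log2 fold changes were 0.06 ± 0.60, -0.79 ± 0.77 and 0.09 ± 0.39 for SLA-DRB2, SLA-DRB4 and SLA-DRB1.

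HLA-DMA and SLA-DMB form the DM molecule that exchanges peptides on class II. HLA-DMA ranged from 3.25 to 8.82 CPM and SLA-DMB from 4.55 to 12.5, with log2 fold changes of -0.40 ± 0.32 and -0.17 ± 0.37. SLA-DOA, which modulates DM, ranged from 1.11 to 4.88 CPM with a log2 fold change of 0.04 ± 0.63. Summed over all 16 rows, class II stood at 127, 127 and 265 CPM in Yorkshire and 117, 116 and 144 in Wei. Outside Yorkshire replicate 3 the breeds overlapped, from 116 to 144 CPM. The median log2 fold change of the tested class II chains was 0.03 without that library.

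In lysosomal processing, the row described as cathepsin L1 came closest to a call after TMP-SLA-5. It remained in the set because the table gives it no symbol, while named cathepsins were left out. Cathepsin L trims proteins into peptides and degrades the invariant chain. The row (ENSSSCG00000011171, chromosome 10, 76997766 to 77003512) stood at 164, 132 and 182 CPM in Wei and 110, 96.7 and 106 in Yorkshire. All Wei values were higher, by a log2 fold change of 0.61 ± 0.15 that missed the threshold at an edgeR adjusted p of 0.051. With DESeq2 it passed (adjusted p = 0.00667), as it did with edgeR's RLE scaling, with no count filter and without Wei replicate 2. Its value without Yorkshire replicate 3 was 0.63.

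IFI30, a thiol reductase that opens disulphide bonds of antigens and is made by phagocytes, had the most negative value of the members. It stood at 4.06, 5.31 and 12.8 CPM in Yorkshire and 2.90, 3.38 and 3.18 in Wei, with all Wei values below. Its log2 fold change was -1.24 ± 0.41 (edgeR adjusted p = 0.118) and -0.56 without Yorkshire replicate 3. DESeq2 gave an adjusted p of 0.0348.

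None of the 5 factors that bind MHC promoters passed edgeR's test. At an unadjusted p under 0.05, 2 were lower, against 11.8% of all genes. DESeq2 and voom called 0, against 9.77% and 4.88%. RFXANK and RFX5 are parts of the RFX complex needed for class II transcription. RFXANK stood at 17.6, 16.4 and 16.6 CPM in Yorkshire and 12.3, 11.4 and 13.2 in Wei, without overlap. Its log2 fold change was -0.45 ± 0.13 (edgeR adjusted p = 0.089) and -0.46 without Yorkshire replicate 3. RFX5 stood at 12.5, 9.73 and 11.95 CPM in Yorkshire and 8.28, 7.61 and 9.93 in Wei, a log2 fold change of -0.40 ± 0.17 (edgeR adjusted p = 0.208). The general promoter factors NFYA, NFYB and NFYC had values of 0.09 ± 0.21, 0.21 ± 0.14 and 0.28 ± 0.13. CIITA, the class II master regulator, lacks the KEGG term and was looked up after the results were seen. It held 44, 21 and 95 counts in Yorkshire and 20, 17 and 30 in Wei, with a log2 fold change of -0.76 ± 0.42 (edgeR adjusted p = 0.311).

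The remaining 13 members had too few counts to be tested, at most 54 in all libraries together. An unnamed row annotated as a killer cell lectin-like receptor of subfamily C, an inhibitory or activating receptor for class I on natural killer cells, held 5, 5 and 43 counts in Yorkshire and 0, 1 and 0 in Wei. The cytokines IFNG and TNF, inducers of MHC genes, held 8 and 20 counts in all, IFNG with none in Wei. KIR2DL1 and SLA-DYB had no count in any library, and a further KIR row and TMP-SLA-4 had 1. SLA-DRB3, SLA-DRB5, SLA-DQB2, SLA-DOB, SLA-DOB2 and an unnamed DOB row held between 4 and 43 counts each. With no count filter, 47 members were tested and none of these was called.

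Yorkshire replicate 3 had the highest value of the 6 libraries in 21 of the 36 tested members, against 19.1% of all tested genes. It was the lowest in 0 of them. Wei replicate 2 was the lowest in 18 of 36, against 17.8% of all genes. All 6 tested T and natural killer cell markers, all 9 macrophage markers and all 5 shared leukocyte markers were highest in Yorkshire replicate 3, while the 6 B cell markers had too few counts to test and summed to at most 1.17 CPM. None of these markers passed edgeR's test between breeds. At an unadjusted p under 0.05, 4 T and natural killer cell, 1 macrophage and 3 shared leukocyte markers were lower in Wei. The share over all genes was 11.8%. DESeq2 called 1 in each of the 3 lists and voom 0, against 9.77% and 4.88% of all genes. CD2, a T cell adhesion receptor, had a log2 fold change of -2.32 ± 0.75 and PTPRC, the common leukocyte antigen, one of -1.36 ± 0.44 (edgeR adjusted p = 0.111 and 0.112). Without Yorkshire replicate 3 the values were -0.88 and -0.59. The part of leukocyte content in the values of the MHC genes was not tested. Without Yorkshire replicate 3, 20 of the 36 members had a negative log2 fold change and their median was -0.03, against -0.27 with it. As that library was the highest in most members, its removal was bound to raise their fold changes. With any other library left out, the median lay between -0.46 (without Wei replicate 3) and -0.17 (without Wei replicate 2).

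**Figure D4:**
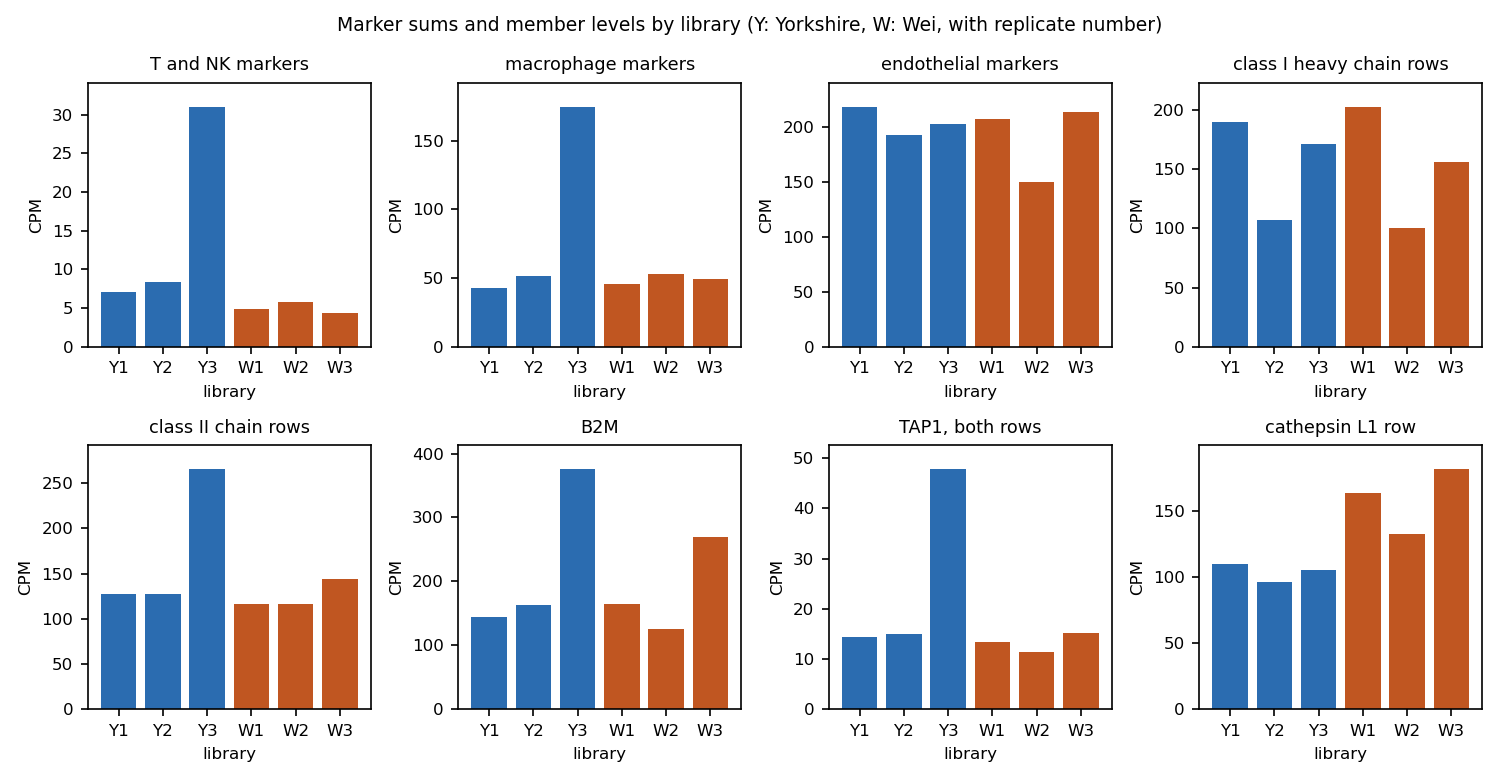
Bars from 0 of the CPM of summed marker lists, summed class I and class II rows, B2M, the 2 TAP1 rows together and the cathepsin L1 row in each library (Y, Yorkshire; W, Wei). Yorkshire replicate 3 is highest for leukocyte markers, class II, B2M and TAP1, not for endothelial markers or class I heavy chains, and the cathepsin L1 row is higher in all Wei libraries.

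Of 22 tested rows in the list of interferon and immunoproteasome control genes, 1 was higher in Wei and 0 were lower by edgeR, against 2.73% and 2.35% of all genes. At an unadjusted p under 0.05, 3 were higher and 2 lower, against 11.4% and 11.8% of all genes. DESeq2 called 2 and voom 1, against 9.77% and 4.88%. The list had a median log2 fold change of -0.23. This list was drawn up with earlier results of these data known. SPPL2A, an intramembrane protease that clears the last fragment of the invariant chain, was the gene that rose. It stood at 119, 81.2 and 125 CPM in Wei and 59.4, 50.2 and 45.8 in Yorkshire, without overlap. SPPL2A had a log2 fold change of 1.07 ± 0.19 (edgeR adjusted p = 0.0246). The call was lost without Yorkshire replicate 2 or 3 or Wei replicate 1 or 3 (adjusted p between 0.0635 and 0.103), with log2 fold changes still between 0.96 and 1.05. No gene passed among the 7 tested endothelial markers, where PECAM1 had -0.38 ± 0.13 (edgeR adjusted p = 0.121). Of these markers, 1 was lower at an unadjusted p under 0.05, against 11.8% of all genes. DESeq2 and voom called 0, against 9.77% and 4.88%.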

How the data were processed

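RNA sequencing of 3 Wei and 3 Yorkshire longissimus dorsi libraries was used. The authors deposited raw counts and FPKM per Ensembl gene, per the file headers. Per the submitters' processing notes, edgeR, TopHat2 2.0.9 and CASAVA 1.7 were used with the build Sscrofa10.2, in roles that are not stated. For the counter, the annotation release and the use of strand, the sources used here say nothing, so reads of overlapping genes cannot be told apart. Coordinates are those of the table and count from 1.

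The count test was edgeR 4.0.16's glmQLFTest in R 4.3.3, with breed as the only term, TMM scaling, filterByExpr at a minimum count of 10 and Benjamini-Hochberg adjustment over the 13209 genes left. CPM values are after TMM scaling. FPKM served only to compare levels between genes. Each SE was obtained by dividing the size of the unshrunk log2 fold change by the root of its F value. The procedure was tested on simulated counts. DESeq2 1.42.0, limma 3.58.1 (voom), other scalings and filters, a replicate block and leaving out each library were alternatives. Summing the repeated rows was added after the data were seen.

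Members and lists were chosen with earlier results of these data known. Named were called members, SLA- rows above the filter, the 2 strongest members per role and called or strongest list genes. Other members and genes were named after their values were seen. Of 6 members without a symbol, 4 matched a table of gene names by ID. Replicates 1 to 3 of the breeds were not taken as pairs. Libraries of a breed differed by at least 26.3 in chi-square per degree of freedom, so none was a copy. Intervals and the limit of 3 counts at a count of 0 cover counting error only.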

Additional observations from a re-analysis of the deposited data

How the results depend on the processing

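Counts of called members were small and moved with the processing. Members higher in Wei numbered 2 with edgeR's RLE size factors and 2 with no count filter in place of 1, and 0 to 1 with a library left out. Members lower numbered 2 with DESeq2 in place of 0, and 0 to 1 with a library left out. Calls over all genes rose from 671 to 1291 with DESeq2 and were 60 to 394 with a library left out, where fewer samples entered each fit; the cause of the DESeq2 difference was not tested. The class II median ranged from -0.58 to 0.034 and that of the members outside both chain groups from -0.52 to -0.090 with a library left out, the upper ends without Yorkshire replicate 3. The class I median stayed within the spread between replicates.

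Replicates 1 to 3 of the breeds share only a number (correlations of deviations 0.137, -0.00664 and 0.0222). With the replicate block, 477 genes were called, and 1 member was lower: SLA-1 (-1.005, edgeR adjusted p = 0.0312), while TMP-SLA-5 passed (adjusted p = 0.048). Of the 36 tested members, 1 turned direction under an alternative that kept every library, SLA-DOA at -0.012 with library size alone, and 12 did with a library left out. Their ranges were -0.65 to 0.28 for B2M, -0.11 to 0.11 for CALR, -0.055 to 0.22 for NFYA, -2.44 to 0.43 for SLA-1, -0.41 to 0.22 for SLA-6 and -0.55 to 0.25 for SLA-DMB. They were -0.31 to 0.79 for SLA-DOA, -0.58 to 0.034 for SLA-DRA, -0.28 to 0.46 for SLA-DRB1, -0.38 to 0.44 for SLA-DRB2, -1.97 to 0.30 for SLA-DRB4 and -0.15 to 0.64 for TMP-SLA-2. Outside the members they were -0.27 to 0.12 for VWF and -1.93 to 0.046 for the further PSMB9 row. None of these genes was called in the fit of all libraries. Depth limits low rows such as SLA-DRB1, with 33 to 96 counts a library.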

Other observations

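The class I cluster on chromosome 7 holds 4 further rows between TMP-SLA-2 and SLA-1 that have only clone-based names and no product in the table. The row at 24655720 to 24659039 held 28, 0 and 403 counts in Yorkshire, nearly all in replicate 3, and 3, 5 and 8 in Wei, above the filter in too few libraries to be tested. The row at 24704564 to 24708270, next to TMP-SLA-5, held 3, 1 and 143 in Yorkshire and 56, 40 and 125 in Wei. The row at 24626856 to 24627344 held 33, 14 and 27 in Yorkshire and 137, 5 and 31 in Wei. The row at 24683605 to 24687412 held 341, 469 and 1053 counts in Yorkshire and 721, 497 and 810 in Wei. None of the 3 tested rows passed (edgeR adjusted p = 0.571, 0.286 and 0.337 in the order given). These rows were picked out after their values were seen.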
